A study of Mus musculus with 12 samples.

Results

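The 6 imprinted genes described here, Nnat, Mcts2, Zrsr1, Nap1l5, Inpp5f and Peg13, each start inside an intron of a larger host gene. Their DNA methylation was followed in 4 mouse embryonic stem (ES) cell lines. The members were chosen by position: all probes of the CpG island array that lay in 1 window of mouse build mm9 around each gene were taken, whatever their values. The 6 windows held 43 probes of 45 to 60 bp out of 88737 on the array. Neighbouring probes with gaps of up to 1000 bp formed an island, which gave 7 window islands out of 14580 on the array, 1 in each window and a second of 4 probes in the Nnat window. The files name no gene for a probe and no mm9 annotation was used here, so each window carries the name of the gene it was drawn around.

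All 4 lines were built on the CC9.3.1 ES cell line, from a 129SvEv-Gpi1c(129S6) embryo, whose own mitochondria were depleted before fusion with enucleated cells of a donor. The mtDNA is that of Mus musculus in CC9mus, of M. spretus in CC9spretus, of M. terricolor (M. dunni in the line's name) in CC9dunni and of M. pahari in CC9pahari, on the same set of M. musculus chromosomes. Each haplotype was represented by a single line, so the line and its mtDNA cannot be told apart. There were 3 replicate arrays for each line and 12 in all, from undifferentiated cells held for 48 h without feeder cells. Methylated DNA immunoprecipitation (MeDIP) pulls down DNA fragments with an antibody to 5-methylcytosine. This IP fraction carried Cy5 and the input DNA Cy3 on every array, and the level given below is the log2 ratio of IP over input, centred on the median of the array, where 0 is the median probe. The ratio is a single value for both parental copies and also depends on how many CpG sites a fragment holds. Tests were therefore made between lines at each island. Levels and ranks of different islands are given as a description. The arrays carry no expression data, so markers of ES cells could not be checked.

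Genomic imprinting leaves a gene active on the copy from one parent and silent on the other. At each of the genes named here the active copy is the paternal one, and the maternal copy of the CpG island at the start carries DNA methylation set in the oocyte and kept through later divisions. ES cells in culture are known to lose or gain such marks. In RefSeq on GRCm38.p6, Nnat lies in the single intron of Blcap, on the opposite strand. Mcts2 lies in intron 4 of 12 of H13, on the same strand. Zrsr1 occupies intron 1 of 2 of Commd1 and Nap1l5 intron 23 of 25 of Herc3, both on the opposite strand. The shorter Inpp5f transcript starts in intron 15 of 19 of the full-length Inpp5f, and Peg13 lies in intron 16 of 21 of Trappc9, both on the strand of the host. Not all host transcripts span the nested gene: 9 of 16 Herc3, 7 of 10 H13, 6 of 7 Trappc9 and 2 of 4 Commd1 transcripts did.

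To show the CpG-bearing DNA in which these imprints are kept, the 250 bases before the start are given below for the 4 members with an entry in the RefSeq promoter table (GRCm38.p6), 5′ to 3′ on the strand of the gene, with each CG dinucleotide in capitals. They are chr2:157559828-157560077 (plus strand) for Nnat, chr2:152686898-152687147 (plus strand) for Mcts2, chr11:22971755-22972004 (plus strand) for Zrsr1 and chr6:58907127-58907376 (minus strand) for Nap1l5. Probe positions are on mm9 and were not converted, so no probe was placed on these bases.
Nnat: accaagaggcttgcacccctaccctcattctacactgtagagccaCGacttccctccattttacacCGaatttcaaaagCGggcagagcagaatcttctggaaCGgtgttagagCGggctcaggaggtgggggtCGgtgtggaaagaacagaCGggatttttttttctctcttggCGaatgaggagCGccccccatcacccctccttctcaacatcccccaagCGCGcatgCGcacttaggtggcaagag
Mcts2: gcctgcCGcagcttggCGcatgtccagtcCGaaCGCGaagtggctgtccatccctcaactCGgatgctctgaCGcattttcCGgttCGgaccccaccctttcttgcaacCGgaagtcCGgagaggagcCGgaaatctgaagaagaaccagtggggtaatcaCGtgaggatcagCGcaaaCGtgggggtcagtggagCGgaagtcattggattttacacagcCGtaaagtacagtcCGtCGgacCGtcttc
Zrsr1: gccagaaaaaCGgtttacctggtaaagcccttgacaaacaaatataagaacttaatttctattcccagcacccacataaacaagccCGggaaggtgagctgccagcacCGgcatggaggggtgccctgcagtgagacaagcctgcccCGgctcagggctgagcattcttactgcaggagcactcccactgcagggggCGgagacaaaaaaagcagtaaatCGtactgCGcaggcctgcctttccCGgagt
Nap1l5: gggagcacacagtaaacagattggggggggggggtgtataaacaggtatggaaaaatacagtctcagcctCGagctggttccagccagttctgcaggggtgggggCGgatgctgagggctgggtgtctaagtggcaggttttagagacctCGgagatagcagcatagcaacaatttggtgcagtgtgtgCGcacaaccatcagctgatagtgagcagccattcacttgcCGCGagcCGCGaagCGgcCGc
Mcts2 had 20 CG dinucleotides in this stretch, Nnat 12, Nap1l5 10 and Zrsr1 8, against a median of 6 over 32851 promoters of the table. The hexamer TGCCGC, which the imprint-keeping zinc finger protein ZFP57 binds when its CpG is methylated, was searched on both strands. It occurred once before Mcts2 and once before Nap1l5, was not found in these stretches of Nnat and Zrsr1, and occurred in 8.68% of all promoters. Inpp5f in its shorter form and Peg13 had no entry of their own.

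The arrays differed in ways that touch every value below. The SD of the log2 ratio was 0.53 on CC9mus replicate 1, 1.85 and 2.01 on CC9mus replicates 2 and 3, and 1.09 to 1.38 on the other 9 arrays. All CC9mus arrays were scanned in a later period, on a day of their own. CC9spretus replicates 1 and 2 were each scanned on a day that held no other array. For the divergent lines (CC9spretus, CC9dunni and CC9pahari), replicates 1 and 2 came from an earlier period and replicate 3 from the later one, and replicates 1 and 2 shared a slide in CC9mus, in CC9dunni and in CC9pahari, as did replicate 3 of CC9spretus and of CC9dunni. Over all probes the same-slide pairs of a line correlated at r = 0.932 in CC9dunni and CC9pahari and at 0.781 in CC9mus, the other pairs of a line at 0.668 to 0.889, and no replicate was a copy of another. The labels do not say that replicates came from separate cultures, so p-values measure the spread between these arrays, part of which may be technical. In the windows, 95.35% of spots had an IP signal well above background and no spot was marked as an outlier. Of the 24 spots without such a signal, 13 were in Zrsr1, 10 of them in CC9pahari and 3 in CC9dunni.

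Among the nested genes, CC9pahari had a high level at Peg13 alone, whereas the other lines had one at 3 to 5 of the 7 islands. Taking a mean log2 ratio above 2, a ratio of 4, as hypermethylated, 28 of the 43 window probes were hypermethylated in CC9mus, against 9.39% of all probes. The count was 34 in CC9spretus (5.16% of all probes), 16 in CC9dunni (5.32%) and 7 in CC9pahari (4.71%). The 7 in CC9pahari were the 7 Peg13 probes. None of the 43 probes had a mean below −2 in any line. Among the 7 islands, 4 had a mean above 2 in CC9mus (9.44% of all islands), 5 in CC9spretus (7.11%), 3 in CC9dunni (7.09%) and 1 in CC9pahari (6.34%). The threshold is on a mean and involves no test, and asking for more than 2 on each of the 3 arrays left 14 probes in CC9mus (0.689% of all probes), 16 in CC9spretus (3.86%), 8 in CC9dunni (4.06%) and 7 in CC9pahari (3.57%). With normexp background correction, 22 probes had a mean above 2 in CC9mus (2.32% of all probes), 20 in CC9spretus (2.77%), 5 in CC9dunni (2.13%) and 7 in CC9pahari (2.17%), and with a score (the value minus the array mean, over the array SD) above 5 asked for as well, none had in any line (0.0192% to 0.106% of all probes).

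**Figure D1:**
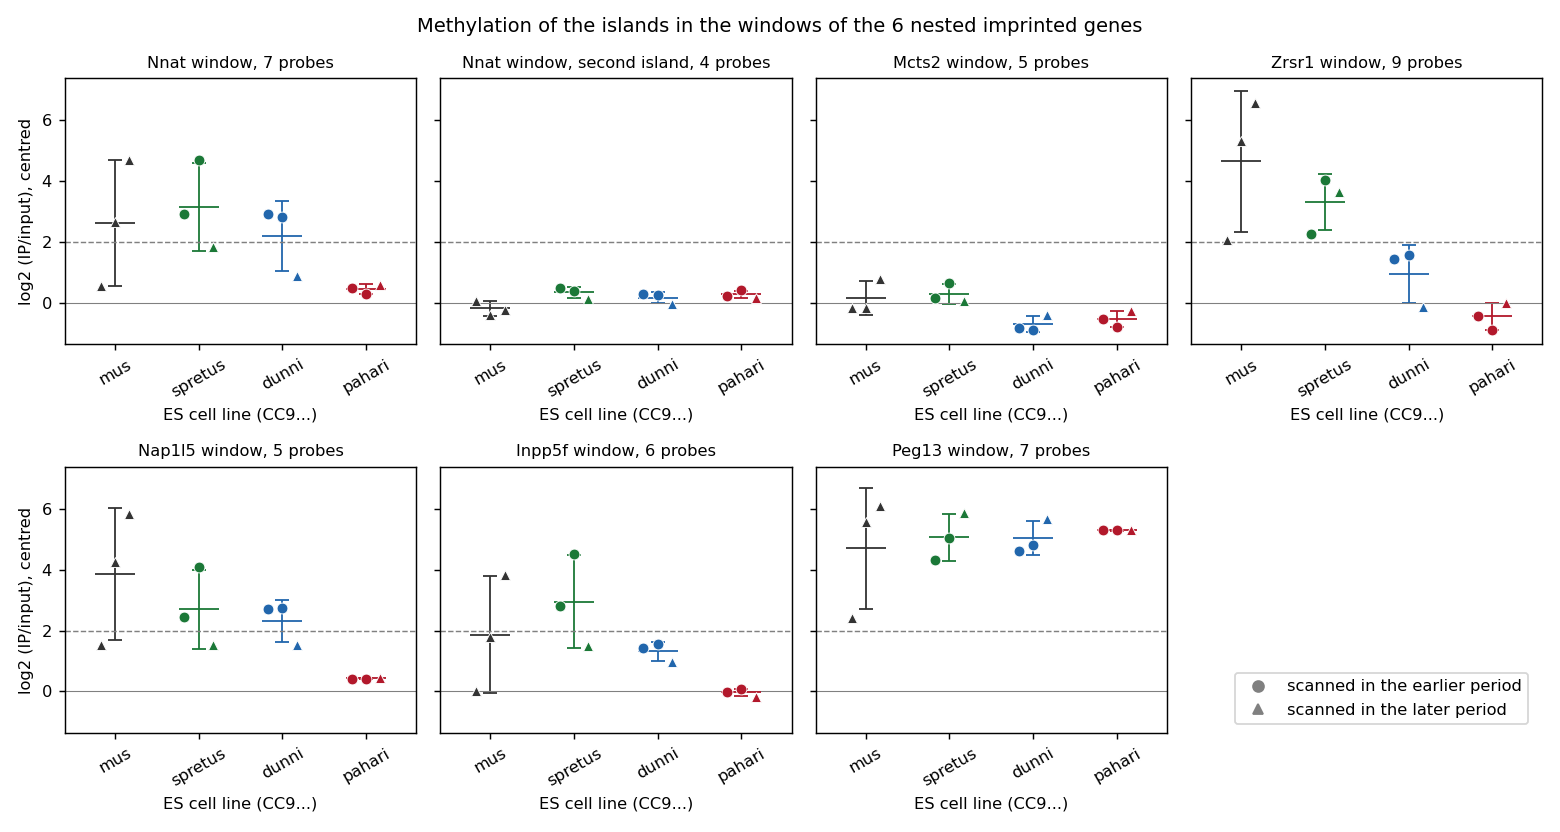
Centred log2 ratio of IP over input (y axis) of the 7 window islands, 1 panel each, for the 3 arrays of each ES cell line (x axis). Points are arrays (circles, earlier scan period; triangles, later), horizontal lines are means, bars are SDs (n = 3) and the dashed line is the threshold of 2. The CC9pahari arrays lie between −0.90 and 0.59 in every island except Peg13, where they lie at 5.29 to 5.30.

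Zrsr1 encodes an RNA-binding protein related to the small subunit of the splicing factor U2AF. Its 9-probe island, chr11:22872000-22873052 (mm9), had log2 ratios of 2.07, 5.33 and 6.56 on the CC9mus arrays and of 2.26, 4.02 and 3.63 on the CC9spretus arrays. The values were 1.42, 1.57 and −0.14 in CC9dunni and −0.44, −0.90 and 0.00 in CC9pahari. The line means ran from 4.65 ± 2.32 in CC9mus through 3.30 ± 0.92 in CC9spretus and 0.95 ± 0.95 in CC9dunni to −0.45 ± 0.45 in CC9pahari (SD, n = 3). Every CC9mus and CC9spretus array lay above every CC9dunni and CC9pahari array. The share of all islands that separate these pairs of lines was not counted. The ranges of CC9mus and CC9spretus overlapped, as did those of CC9dunni and CC9pahari, where the third CC9dunni array fell between the CC9pahari arrays. In CC9pahari, 10 of the 27 spots of the island had an IP signal not well above background, and 4 of the 9 probes were above it on 1 array only, so the low level there is an upper bound.

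Nap1l5 belongs to the nucleosome assembly protein family. Its island, chr6:58856617-58857246 with 5 probes, read 1.52, 4.26 and 5.81 in CC9mus, 2.46, 4.10 and 1.53 in CC9spretus and 2.72, 2.73 and 1.53 in CC9dunni. The CC9pahari arrays read 0.42, 0.42 and 0.45, below all 9 others. Of all islands, 0.789% had the 3 CC9pahari arrays below the other 9 on this scale, and Nap1l5 was the only window island that did. The means of the other 3 lines, 3.86 ± 2.18, 2.69 ± 1.30 and 2.33 ± 0.69 in the same order, had overlapping ranges, and that of CC9pahari was 0.43 ± 0.02 (SD, n = 3).

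Nnat encodes neuronatin, a small membrane protein of the endoplasmic reticulum that is expressed in the developing brain. The 7-probe island chr2:157385700-157386395 had values of 0.53, 2.66 and 4.68 in CC9mus, 2.93, 4.69 and 1.83 in CC9spretus, 2.92, 2.81 and 0.86 in CC9dunni and 0.47, 0.28 and 0.59 in CC9pahari. CC9spretus had the highest mean at 3.15 ± 1.45, followed by CC9mus at 2.62 ± 2.07 and CC9dunni at 2.20 ± 1.16, and CC9pahari had the lowest at 0.45 ± 0.15 (SD, n = 3). The first 3 overlapped, and the CC9pahari arrays overlapped with CC9mus replicate 1 alone. The second island of the window, chr2:157391606-157391927, stayed between −0.39 and 0.49 on the 12 arrays, and its line means lay between −0.19 and 0.34.

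Inpp5f encodes an inositol polyphosphate phosphatase, and the imprinted form is a shorter transcript from an internal start. The window's 6-probe island, chr7:135831552-135832148, read 0.00, 1.79 and 3.82 in CC9mus and 2.80, 4.53 and 1.48 in CC9spretus. It read 1.44, 1.56 and 0.96 in CC9dunni and −0.01, 0.08 and −0.17 in CC9pahari. CC9spretus was again highest (2.94 ± 1.53), then CC9mus (1.87 ± 1.91), CC9dunni (1.32 ± 0.32) and CC9pahari (−0.03 ± 0.12; SD, n = 3). Every CC9spretus and CC9dunni array lay above the CC9pahari arrays, while CC9mus replicate 1 lay among them. How many islands of the array separate in this way was not counted.

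Mcts2 is an intronless copy of Mcts1, which encodes a protein of translation initiation. The island of its window, chr2:152512463-152513054 with 5 probes, was near or below the array median in each line. The means were 0.14 ± 0.56 in CC9mus, 0.29 ± 0.32 in CC9spretus, −0.70 ± 0.27 in CC9dunni and −0.54 ± 0.26 in CC9pahari (SD, n = 3). The CC9spretus arrays, at 0.16, 0.66 and 0.05, lay above the CC9dunni arrays at −0.83, −0.88 and −0.40 and the CC9pahari arrays at −0.55, −0.79 and −0.28. The CC9mus arrays, at −0.18, −0.19 and 0.79, also lay above both of these lines, and overlapped with CC9spretus. For this separation too, the share of all islands was not counted.

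Peg13 is a long noncoding RNA. Its 7-probe island, chr15:72639885-72640622, was hypermethylated on all 12 arrays. It read 2.43, 5.57 and 6.09 in CC9mus, 4.30, 5.03 and 5.85 in CC9spretus, 4.63, 4.80 and 5.66 in CC9dunni and 5.29, 5.29 and 5.30 in CC9pahari. The 4 means, 4.69 ± 1.98, 5.06 ± 0.78, 5.03 ± 0.55 and 5.29 ± 0.01 (SD, n = 3), lay within the spread of the first. The close agreement of the CC9pahari arrays held for the island mean and not for its probes, whose SDs over these arrays ran from 0.04 to 1.39. The differences between each line and the other 3 were −0.43 to 0.36 (SE 0.64). The value for CC9mus depended on the spread of the arrays: it was −2.18 with the arrays scaled to equal spread (limma adjusted p = 0.201), −2.98 on equal spread without CC9mus replicate 1 (adjusted p = 0.161), and −3.54 on equal spread with the scan period as a block, where it passed (adjusted p = 0.045).

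Ranks within an array do not depend on its spread. The Peg13 island was at the 98.6th to the 99.65th percentile of all islands on the 12 arrays. Zrsr1 was at 98.96, 99.29 and 99.65 on the CC9mus arrays, at 93.62, 97.46 and 95.36 on the CC9spretus arrays, at 90.83, 91.36 and 28.8 on the CC9dunni arrays and at 15.68, 2.55 and 42.86 on the CC9pahari arrays. At Zrsr1, CC9mus replicate 1, the array with the narrow ratios, ranked close to its line on this scale. The 3 CC9mus arrays ranked above the other 9 at Zrsr1 and Nap1l5, which 6.98% of all islands did.

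Nap1l5 ranked between 71.08 and 78.55 in CC9pahari and at 89.64 or above on the other 9 arrays. Nnat ranked between 71.9 and 80.31 in CC9pahari and at 86.68 or above elsewhere. The 3 CC9pahari arrays were below the other 9 at these 2 of the 7 islands, and at 1.81% of all islands. Inpp5f ranked between 30.2 and 58.15 in CC9pahari and at 87.28 or above on 8 of the others, and CC9mus replicate 1, at 48.48, fell in the CC9pahari range. Mcts2 was at 26.62 to 67.8 in CC9mus and 48.07 to 88.13 in CC9spretus, but at 7.14 to 9.26 in CC9dunni and 4.04 to 22.48 in CC9pahari.

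**Figure D2:**
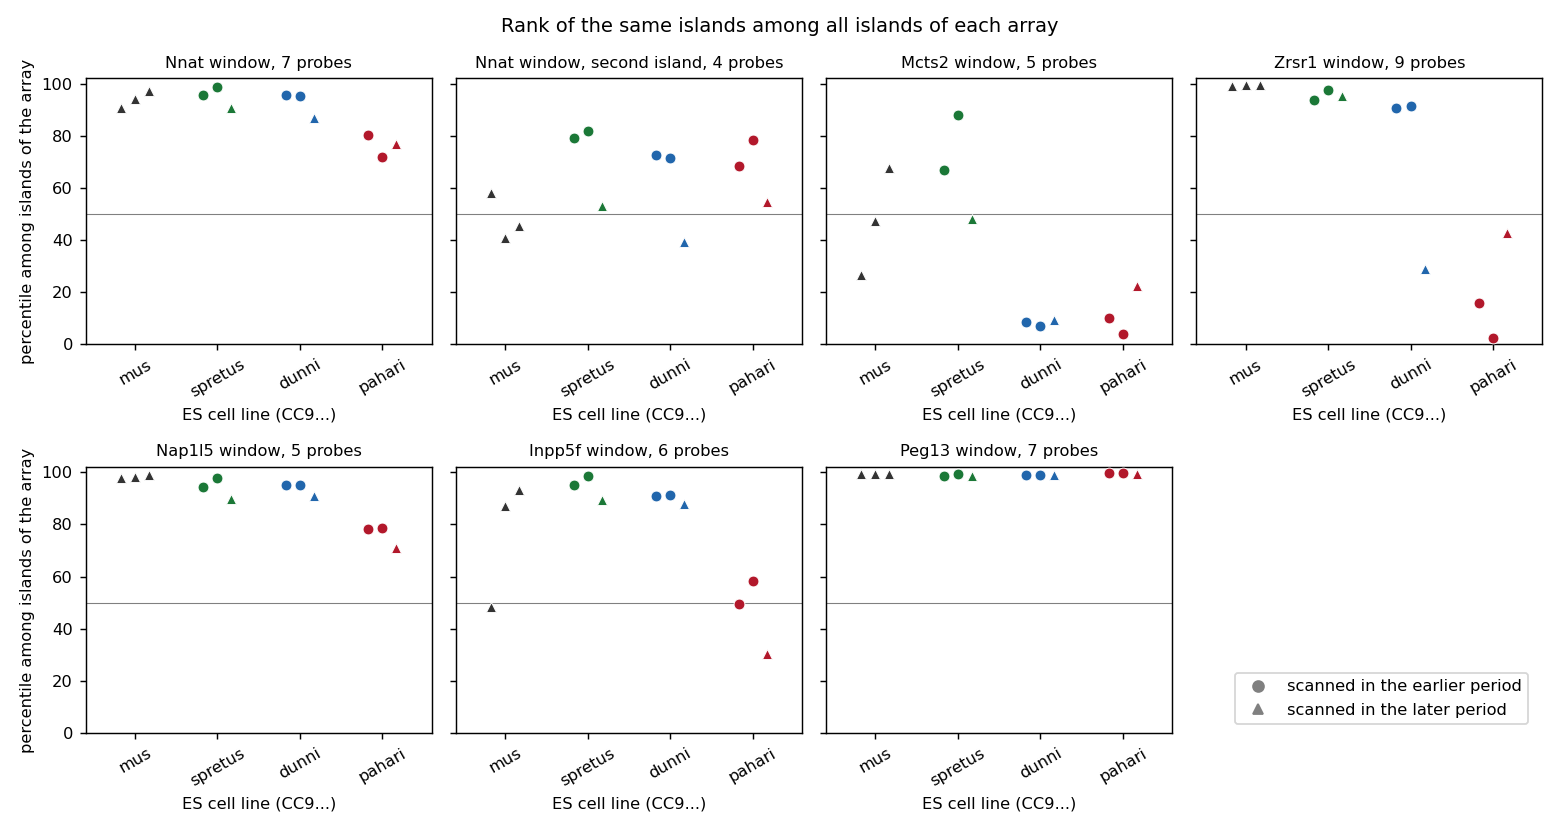
Percentile of each window island among all islands of the same array (y axis) for the 12 arrays by ES cell line (x axis), with circles for the earlier and triangles for the later scan period. Peg13 is above 98 on every array, whereas the CC9pahari arrays are at 80.31 or lower in each of the other islands.

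At Inpp5f the line means of the 6 probes spanned 0.40 in CC9dunni to 0.88 in CC9pahari, and at Nap1l5 those of the 5 probes spanned 0.57 in CC9spretus to 1.24 in CC9pahari. The largest span of a line was 2.31 at Zrsr1 and 1.80 at Nnat, both in CC9pahari, and 1.96 at Mcts2, in CC9mus. All 5 Nap1l5 probes had a mean above 2 in CC9mus and CC9spretus and 4 had in CC9dunni, against none in CC9pahari. All 9 Zrsr1 probes had a mean above 2 in CC9mus and CC9spretus and none had in CC9dunni or CC9pahari. In CC9pahari, no probe outside Peg13 had a mean above 2.

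Over the 12 arrays the highest Zrsr1 probe was chr11:22872411-22872456 (mean 2.41) and the lowest chr11:22872000-22872052 (1.47). At Nap1l5 the highest was chr6:58856617-58856661 (2.74) and the lowest chr6:58857120-58857164 (1.96). At Inpp5f they were chr7:135831942-135831986 (1.75) and chr7:135831748-135831792 (1.31). Such levels of different probes are given as a description. In the Nnat window the highest probe, chr2:157385874-157385918 (2.48), lay in the first island and the lowest, chr2:157391806-157391850 (−0.52), in the second. At Mcts2 the highest was chr2:152512595-152512639 (0.94), above 0 in each line, and the lowest chr2:152513000-152513054 (−0.66). At Peg13 the highest was chr15:72640376-72640420 (5.24) and the lowest chr15:72640149-72640194 (4.76).

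**Figure D3:**
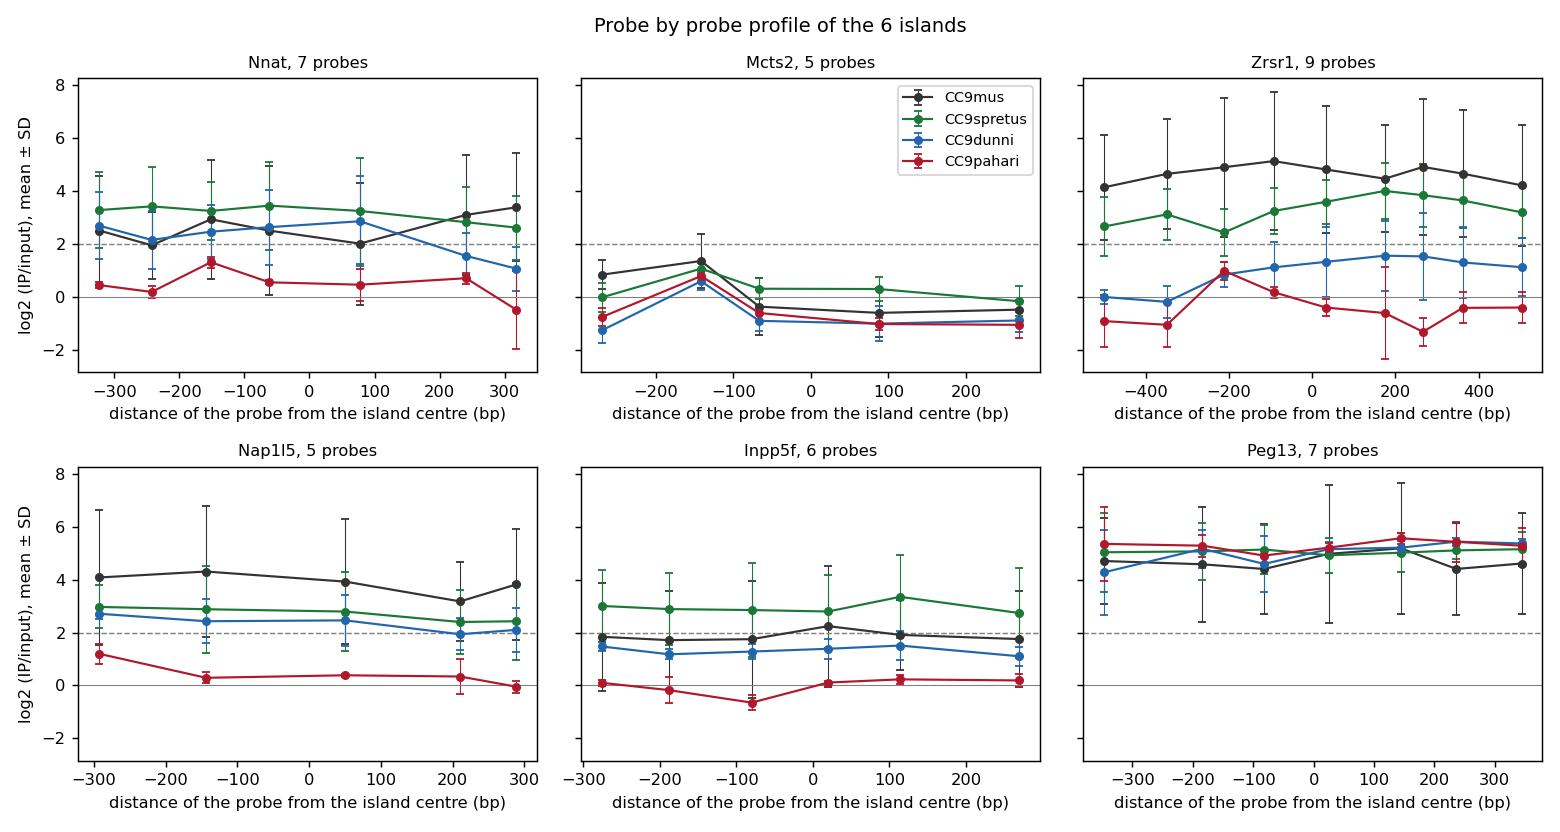
Mean log2 ratio of IP over input (y axis, bars SD, n = 3) of each probe against its distance from the centre of the island in bp (x axis), for the largest island of each window and the 4 lines. The dashed line is the threshold of 2. At Zrsr1 the CC9mus line runs between 4.14 and 5.13 and the CC9pahari line between −1.33 and 0.98, whereas the 4 lines lie between 4.28 and 5.56 at Peg13.

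Differences between the lines were tested with limma, with Benjamini-Hochberg adjustment over all probes or all islands of the array. In CC9mus against the other 3 lines, 6 of the 43 window probes passed an adjusted p of 0.05, all higher in CC9mus, where 2.76% of all probes passed as higher and 4.57% in either direction. Of these, 5 lay in Zrsr1. The largest difference there was at chr11:22872152-22872201, at 4.03 (SE 0.71, adjusted p = 0.0405), which was 4.64 ± 2.08 (SD, n = 3) in CC9mus, 3.11 ± 0.98 in CC9spretus, −0.19 ± 0.59 in CC9dunni and −1.06 ± 0.83 in CC9pahari. The IP channel exceeded background clearly on all 6 arrays of CC9mus and CC9spretus, but on 2 of 3 in CC9dunni and 1 of 3 in CC9pahari, so the low means are upper bounds, and with normexp background the difference was 1.94 (adjusted p = 0.123). The sixth was the Mcts2 probe chr2:152512463-152512515, with a difference of 1.52 (SE 0.33, adjusted p = 0.0415). Here the IP channel was clearly above background on 4 of the 12 arrays, none of them CC9dunni or CC9pahari, so the level in those lines is an upper bound, and with normexp background the difference was 0.30 (adjusted p = 0.536).

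Leaving out any 1 array other than CC9mus replicate 1 left none of the window probes called, with 0% to 0.14% of all probes, so calls were lost over the whole array. In those 11 fits the difference stayed between 3.35 and 4.16 at the Zrsr1 probe and between 1.24 and 1.59 at the Mcts2 probe. Leaving out CC9mus replicate 1 gave 23 window probes and 40.4% of all probes. With the scan period as a block, no probe of the array was called, and the difference at the Zrsr1 probe was 3.71. After scaling to equal spread, this block gave calls at 7 window probes and 21.4% of all probes, with the Zrsr1 probe at 2.89 (adjusted p = 0.0413) and the Mcts2 probe at 1.65 (adjusted p = 0.0117). The 6 arrays of the later period, with 1 array for each divergent line, called no probe of the array. No window island passed in CC9mus against the others (0% of all islands did), although 3 of 7 (Zrsr1 and Nap1l5 higher, the second Nnat island lower) had an unadjusted limma p under 0.05, as did 32.3% of all islands. The nearest was Zrsr1 with a difference of 3.38 (SE 0.78, adjusted p = 0.0514), which was 4.67 without CC9mus replicate 1 (adjusted p = 0.000312), in a fit that called 50.3% of all islands, 2.43 without CC9mus replicate 3 (adjusted p = 0.116) and 1.79 on equal spread without replicate 1 (adjusted p = 0.178). Nap1l5 differed by 2.05 (SE 0.76, adjusted p = 0.1) by 3.22 without CC9mus replicate 1 (adjusted p = 0.00177), by 1.07 without replicate 3 (adjusted p = 0.396) and by 0.82 with the arrays scaled to equal spread (adjusted p = 0.429). The other 5 differences were between −0.45 and 0.69. Of these, the second Nnat island passed without CC9mus replicate 1 (−0.57, adjusted p = 0.0124), in the fit that called 50.3% of all islands. Mcts2 was at 0.46 on all arrays and at 0.14 without CC9mus replicate 3.

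In no other contrast over the 12 arrays did a window probe pass. The share of all probes that passed was 0.00113% in CC9spretus against the other 3 lines and 0% in CC9dunni and in CC9pahari against the other 3. It was also 0% in CC9spretus, CC9dunni and CC9pahari against CC9mus. Before adjustment, limma gave a p under 0.05 at 26 of the 43 window probes in CC9pahari against the other 3 lines, all lower in CC9pahari, where 1.87% of all probes were lower by this rule. The median difference over the 43 probes was −2.03, and 0.09 over all probes. By the same rule 12 window probes were higher in CC9spretus (0.648% of all probes), 4 were lower in CC9dunni (2.01%) and 16 were higher in CC9mus (14.1%). Against CC9mus the counts in either direction were 2 in CC9spretus (17.1% of all probes), 12 in CC9dunni (23.4%) and 22 in CC9pahari (20.7%).

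At the level of islands, 4 of the 7 had an unadjusted p under 0.05 and a lower level in CC9pahari than in the other 3 lines, as did 1.06% of all islands. They were Zrsr1 (−3.41, SE 0.78), Nap1l5 (−2.53, SE 0.76), Nnat (−2.21, SE 0.80) and Inpp5f (−2.08, SE 0.72). The limma adjusted p was 0.786 for each, so none passed over the array as a whole. Peg13 differed by 0.36 (SE 0.64, adjusted p = 0.843), Mcts2 by −0.45 (SE 0.24) and the second Nnat island by 0.17 (SE 0.16). In the same contrast for CC9spretus the largest differences were 1.89 (SE 0.72) at Inpp5f and 1.58 (SE 0.78) at Zrsr1, both with an adjusted p of 1.00.

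Since the CC9mus arrays had both the narrowest and the widest spread, the 3 divergent lines were also compared among themselves, over their 9 arrays with the scan period as a block. This comparison was chosen after the data had been seen. No block for the slide was fitted here. Replicates 1 and 2 of CC9dunni, and those of CC9pahari, thus counted as separate arrays although they shared a slide. In CC9pahari against CC9spretus and CC9dunni, 3 of the 7 window islands were lower by the limma adjusted p, and 1.87% of all islands were. Zrsr1 was lower by 2.57 on the log2 scale (difference −2.57, SE 0.48, adjusted p = 0.0343). Nap1l5 differed by −2.08 (SE 0.38, adjusted p = 0.0338) and Inpp5f by −2.16 (SE 0.42, adjusted p = 0.0400). The difference at Nnat was of the same size, −2.23 (SE 0.47), with an adjusted p of 0.0502. Peg13 was at 0.24 (SE 0.23, adjusted p = 0.590). Of single probes, 1 in Nap1l5, chr6:58857120-58857164, passed (−1.83, SE 0.28, adjusted p = 0.0432), against 0.372% of all probes lower.

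In CC9spretus against the other 2 divergent lines, Zrsr1 was higher by 3.05 (SE 0.48, adjusted p = 0.0412), and 0.37% of all islands were higher by this rule. The scan-period block does not take out the separate scan days of CC9spretus replicates 1 and 2. Inpp5f was at 2.29 (SE 0.42, adjusted p = 0.0612) and Mcts2 at 0.91 (SE 0.17, adjusted p = 0.0687). No window island was lower in CC9dunni by the adjusted p (0.35% of all islands were), and the difference furthest below 0 was that of Mcts2 (−0.58, SE 0.17, adjusted p = 0.156). Deviations of the same-numbered replicates of these 3 lines correlated positively. Only replicate 3 was of the later scan period, so pairing by number apart from that period was not shown. The fit was also made with the replicate number as a block in place of the scan period. It left Nap1l5 lower in CC9pahari (adjusted p = 0.0482), and 1.04% of all islands lower. Zrsr1 (adjusted p = 0.0564), Inpp5f (0.0533) and Nnat (0.0776) did not pass, nor did Zrsr1 in CC9spretus (0.0802, with 0.185% of all islands higher). The Nap1l5 probe did not pass either, with 0.053% of all probes called in either direction. Each of these calls was also lost when the arrays were scaled to an equal spread (adjusted p of 0.164 to 0.214). Calls were then lost over the whole array. The share of all islands called in either direction fell from 2.25% to 0.528% in CC9pahari and from 0.425% to 0.0343% in CC9spretus. When each of the 9 arrays was left out in turn, the number of window islands lower in CC9pahari ran from 0 to 4. It was 0 on leaving out replicate 1 or 2 of CC9dunni or of CC9pahari, which shared a slide within each line. The share of all islands called in either direction moved with it, from 0.151% to 0.693% in those 4 fits and from 1.42% to 3.61% in the other 5. The differences themselves stayed between −2.99 and −2.29 at Zrsr1, −2.58 and −1.79 at Nap1l5, and −2.55 and −1.82 at Inpp5f. The Zrsr1 call in CC9spretus was lost on leaving out 6 of the 9 arrays, while its difference stayed between 2.68 and 3.65 and the share of all islands called ran from 0.0549% to 1.23%.

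**Figure D4:**
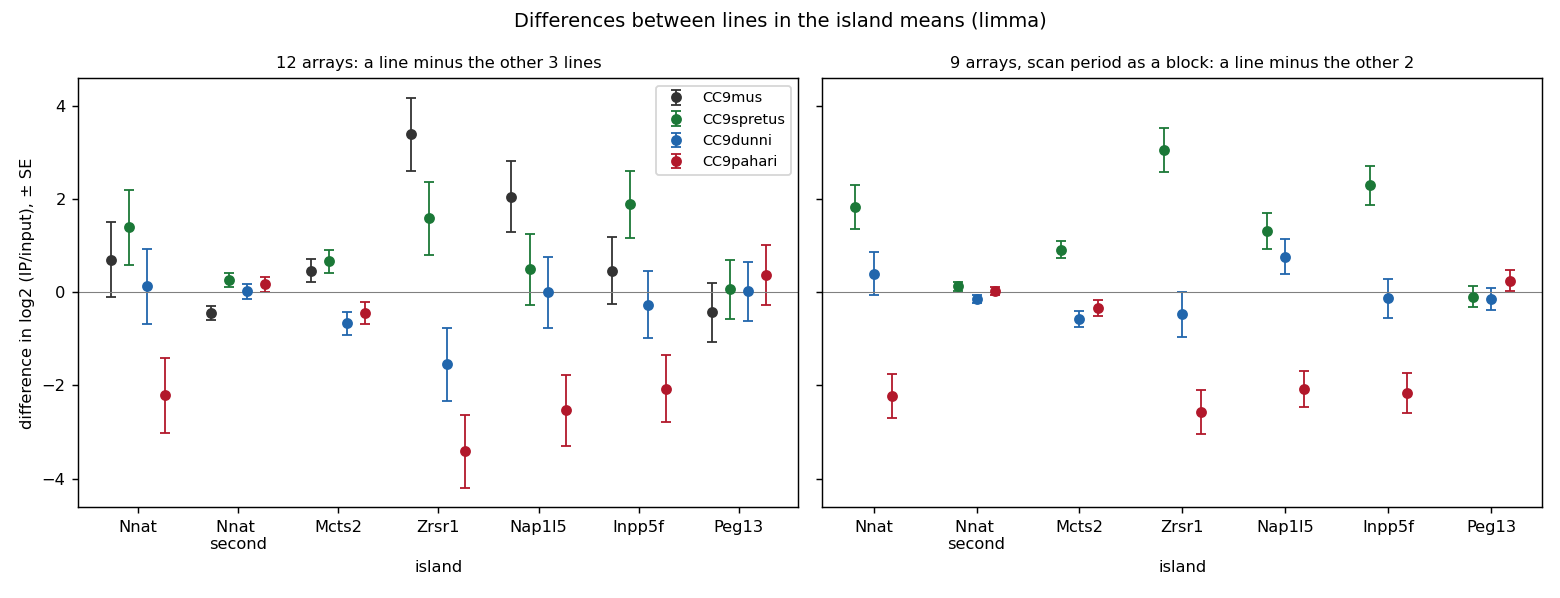
Difference in log2 ratio of IP over input (y axis, points; bars SE, limma) for the 7 window islands (x axis): each of the 4 lines minus the mean of the other 3 over 12 arrays (left), and each divergent line minus the mean of the other 2 over 9 arrays with the scan period as a block (right). CC9pahari lies at −3.41 to −2.08 on the left and −2.57 to −2.08 on the right for Zrsr1, Nap1l5, Nnat and Inpp5f, and at 0.36 and 0.24 for Peg13.

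The 2 channels were also read apart. Taking each probe relative to its mean over the 12 arrays, the IP signal of the Zrsr1 island spanned 7.22 on the log2 scale over the arrays and its input signal 0.44. For Nap1l5 the spans were 5.70 and 0.96, for Inpp5f 4.45 and 0.95, for Nnat 4.17 and 0.35 and for Peg13 3.27 and 0.81. For Mcts2 they were 1.58 and 0.34. At each of these islands the IP signal thus varied more than the input signal. The CC9mus input was 0.47, 0.48 and 0.20 at Nap1l5 and 0.54, 0.54 and 0.23 at Inpp5f. At both islands it lay above every array of the other lines, which lowers the CC9mus ratios there. The CC9pahari IP signal was −2.67, −3.01 and −1.89 at Zrsr1, with input at −0.13, 0.01 and 0.26. At the second Nnat island the channels spanned 0.59 and 0.69, and neither stood out.

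**Figure D5:**
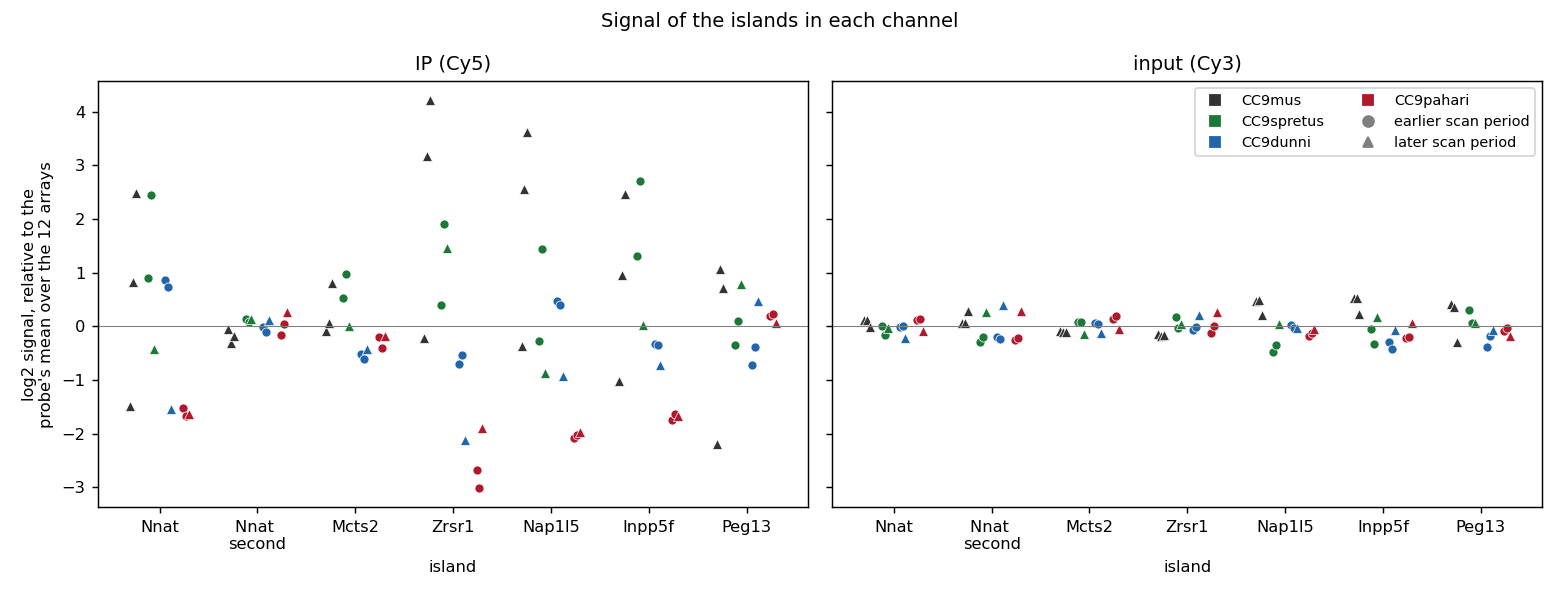
Log2 signal of each window island (x axis) in the IP (left) and input (right) channel, each probe relative to its mean over the 12 arrays (y axis), with 1 point per array coloured by line (circles, earlier scan period; triangles, later). The IP points span up to 7.22, whereas the input points stay between −0.48 and 0.54.

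The islands within 100 kb of the windows were also read, to compare the lines at each of them. There were 15, of which 6 lay beside Mcts2, 4 beside Zrsr1, 3 beside Inpp5f and 1 each beside Nnat and Nap1l5, with none beside Peg13. Their means over the 12 arrays lay between −1.38 and 1.91. A line mean above 2 occurred at 1 of them, in CC9mus, where 9.44% of all islands had one. It was chr2:152460105-152460518 beside Mcts2, with 2.13 ± 1.66 in CC9mus, 1.98 ± 0.54 in CC9spretus, 1.89 ± 0.40 in CC9dunni and 1.62 ± 0.56 in CC9pahari (SD, n = 3). At the 4 neighbours of Zrsr1 the means over the 12 arrays were −1.09 to 0.42, and those of CC9mus ran from −1.38 to 0.43.

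The patterns over the 12 arrays were also set against 13456 other islands of at least 3 probes. The island most like Nap1l5 was chr10:12810275-12811158 (Pearson's r = 0.98, 12 arrays), with means of 4.14, 2.86, 2.01 and 0.45 in CC9mus, CC9spretus, CC9dunni and CC9pahari. The one most like Zrsr1 was chr7:6682111-6683212 (r = 0.97), with 4.00, 2.84, 1.098 and −0.36 in the same order. The order and the size of the line means were thus close to those of the nested gene in both cases. For Inpp5f it was chr11:11925467-11926345 (r = 0.90), for Mcts2 chr2:160471323-160472805 (r = 0.91), for Peg13 chr11:118752569-118753032 (r = 0.95) and for Nnat chr11:80289924-80291652 (r = 0.89). Their means in the same order were 1.92, 2.93, 0.31 and 0.28 for Inpp5f and 1.26, 1.51, 0.21 and 0.45 for Mcts2. They were 4.13, 4.50, 4.34 and 4.78 for Peg13 and 0.38, 0.42, 0.49 and 0.15 for Nnat. The likeness in size thus did not hold for each match, least of all for Nnat. Each is the highest of many correlations over arrays that share lines, slides and spread, and is given as a description. These islands carry no gene name in the files.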

How the data were processed

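MeDIP DNA was measured on 12 Agilent 2-colour arrays, 3 for each line as titled in the labels. The authors deposited processed intensities after background subtraction, spatial detrending and linear dye normalisation in Feature Extraction (11.0.1.0 in the submitters' processing notes, 11.0.1.1 in the file headers), and a log10 ratio of IP over input that was used as an alternative. The deposited flag columns, in no unit, marked outlier and dim spots. The authors' later steps in other software were not repeated. Here log2 ratios were taken without outlier spots, then centred on the median probe of the array. Of the probes, 88321 had an mm9 position, and 5950 control spots were left out. Line means over all 12 arrays were compared by lmFit and eBayes (limma 3.58.1 on R 4.3.3), and an adjusted p under 0.05 was taken as a call. The fit was tested on simulated data. Python 3.11.15, pandas 2.3.3 and matplotlib 3.10.9 were used for the rest. The members and lists were chosen with earlier results of these data known. Named by rule were the 6 genes, the highest and lowest probe of each window, the largest called probe of each contrast and window, and the most similar island. Alternatives were no centring, equal spread, normexp background (offset 50), the deposited ratio, dim input left out, each array left out, blocks for replicate number, slide and scan period, a minimum difference of 1, stricter thresholds, and other island rules. Those added after the data were seen were scan-period fits on arrays of equal spread, on the later period alone, without CC9mus replicate 1 on equal spread, and among the divergent lines, the last also with the replicate number as a block. Among the divergent lines all 9 same-numbered pairs had correlations of deviations above 0.1 (0.119 to 0.539). By this the numbers, given in the labels, were used as a block for these arrays. The highest values (0.392 to 0.539) were among the replicate 3 arrays, all of the later scan period. Pairs of different number were not compared, so pairing by number apart from that period was not shown. For arrays, their number limits the precision.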

Additional observations from a re-analysis of the deposited data

How the results depend on the processing

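Same-numbered replicates of CC9mus and the other lines had correlations of their deviations of −0.384 to 0.186, so the numbers did not pair the arrays in comparisons with CC9mus. With the replicate number as a block, 1 window island was called in CC9mus against the other 3 lines (Zrsr1, adjusted p = 0.0405; 7.96% of all islands), and 3 window probes in CC9dunni against CC9mus (1.18% of all probes), where 0 had been. That island count was also 1 with no centring (7.9% of all islands), with equal spread (13.8%), and with dim input probes left out (4.97%), each time Zrsr1. With the scan period as a block on equal spread it was 1 as well (4371 islands in all), but this was Peg13, while Zrsr1 was at 2.45 (adjusted p = 0.057). The count was 0 to 3 when each array was left out. Of the 6 window probes called in CC9mus against the other 3 lines, 0 remained with normexp background (0.027% of all probes), with the slide as a random block, with the scan period as a block and in the later scan period alone (0% each). The count was 9 with no centring (5.83%) and with the replicate block (8.42%), 8 with dim input left out (6.21%), 7 with the scan period as a block on equal spread (21.4%), 5 with equal spread (12.1%), and 0 to 23 when each array was left out. Equal spread gave 5 window probes in CC9dunni (9.16% of all probes) and 9 in CC9pahari (3.95%) against CC9mus, and with the scan period as a block as well it gave 6 (19.5%) and 15 (14.6%), and 1 (1.92%) in CC9dunni against the other 3 lines. Leaving out arrays gave 0 to 19 in CC9dunni, 0 to 27 in CC9pahari and 0 to 10 in CC9spretus against CC9mus, each highest without CC9mus replicate 1, where 34.0%, 31.7% and 27.0% of all probes were called. The 9-array fit of the divergent lines gave 1 in CC9pahari (0.425% of all probes), and 0 with the replicate block (0.053%). Window probes above 2 numbered 20 in CC9spretus and 5 in CC9dunni with normexp background and 4 in CC9pahari with dim input left out (4.68% of all probes). With the threshold on every array there were 14 in CC9mus, 16 in CC9spretus and 8 in CC9dunni, and with the score beyond 5 there were 0 in each line. Differences of CC9mus from the other 3 lines reversed in 10 cases, none of which passed the test. Nnat was at −0.50 with equal spread, −0.34 (without CC9mus replicate 3) to 1.74 (without CC9mus replicate 1) when each array was left out and −0.24 on equal spread without CC9mus replicate 1. Inpp5f was at −0.67 with equal spread, −0.52 to 1.40 when the same arrays were left out, −0.0598 with the scan period as a block on equal spread and −0.15 on equal spread without CC9mus replicate 1. Mcts2 was at −0.0241 with normexp background, and Peg13 at 0.33 with normexp background and −1.13 to 0.70 when each array was left out. In that block on equal spread, Peg13 passed at −3.54, lower in CC9mus (limma adjusted p = 0.045). Where a count moved, the cause was not tested. The limits are 3 arrays for each line, CC9mus replicates of unequal spread, and a scan day that held CC9mus alone, so that for CC9mus this day and the line cannot be told apart. IP signals near background, as at 1 Mcts2 probe and at Zrsr1 in CC9pahari, give upper bounds.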
